A study of Mus musculus with 8 samples.

Results

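Tight junctions seal the clefts between neighbouring cells, and in the retina they form the inner blood-retina barrier between vascular endothelial cells and the outer barrier between cells of the retinal pigment epithelium. The junction is built from membrane proteins, the claudins and occludin, which are tied to the actin skeleton by scaffold proteins of the zonula occludens family and cingulin. Endothelial cells of the barrier also keep transcytosis low, through the lipid transporter Mfsd2a, and carry little of Plvap, which forms the diaphragms of leaky vessels.

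The 9 genes described here are the scaffolds Tjp1, Tjp3 and Cgn, the membrane proteins Ocln, Cldn1, Cldn19 and Cldn5, and the endothelial genes Mfsd2a and Plvap. They were chosen by symbol from the 57010 Ensembl identifiers of a count table of mouse retina, and the set was selected on measured values in so far as Tjp3 was known to be among the strongest falls in rd10 retina at postnatal day 15 (P15). Every measure of rd10 P15 against WT P15 is therefore given as a description with no test, and Tjp3 was tested only between rd10 P21 and rd10 P18. All 9 genes passed the filter on low counts, among 20457 genes that did.

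Poly(A) RNA of whole retinas was sequenced in 4 groups of 2 libraries each, one of wild-type (WT) mice aged P15 and 3 of the rd10 line, aged P15, P18 or P21. The rd10 mice were homozygous for a missense mutation of Pde6b, the gene of a rod phosphodiesterase subunit, and their rods degenerate from about the age sampled. The study's methods name wild-type littermates as controls, and each library came from 1 retina. No WT retina of P18 or P21 was analysed here, so a difference of rd10 P18 or P21 from WT P15 holds both genotype and age, which cannot be told apart.

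Total counts lay between 28076947 and 33724562 per library. Y-linked genes gave 5530 to 7193 counts for the rd10 P15 pair and the first replicates of rd10 P18 and P21, but 3 to 19 counts for the WT pair and the second replicates of rd10 P18 and P21. At P15 sex and genotype therefore cannot be told apart. The 2 rd10 P18 libraries differed the most from each other of any pair within a group (chi-square per gene 103, against 24.5 to 39.4 in the other groups), so results that rest on them are given with and without each. A fit without 1 library leaves its group with a single one, which is then assumed to vary like the other groups, and its p-values rest on that. Without rd10 P18 replicate 2 such a fit called 1250 genes in rd10 P18 against WT P15, and without replicate 1 it called 250, against 303 with both. The summed level of 10 rod markers was 44928 to 55265 CPM (reads brought to a common library size by TMM) in WT and 20970 to 35335 CPM in rd10, and in whole retina fewer cells of a type and less RNA per cell cannot be told apart.

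The 250 bases before the RefSeq start (GRCm38.p6, gene strand, 5′ to 3′) are shown for Cldn5 and Mfsd2a, the pair of members that was higher in all 6 rd10 libraries than in both WT libraries, and for Tjp3, the member with the widest range. Capitals mark matches on either strand to the letters of a GC box (GGGCGG), an ETS motif (CGGAAG), a TCF/LEF motif (CTTTGA), a SOX motif (AACAAT), a FOX motif (TGTTTA) or an E-box (CACGTG). The windows lie at chr16:18776597-18776846 (plus strand), chr4:122961189-122961438 (minus strand) and chr10:81291582-81291831 (minus strand).
Cldn5: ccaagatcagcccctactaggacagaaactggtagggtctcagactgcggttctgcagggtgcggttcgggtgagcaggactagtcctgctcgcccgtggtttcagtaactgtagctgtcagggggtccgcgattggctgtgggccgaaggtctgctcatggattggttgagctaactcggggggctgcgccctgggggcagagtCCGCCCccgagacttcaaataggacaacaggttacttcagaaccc
Mfsd2a: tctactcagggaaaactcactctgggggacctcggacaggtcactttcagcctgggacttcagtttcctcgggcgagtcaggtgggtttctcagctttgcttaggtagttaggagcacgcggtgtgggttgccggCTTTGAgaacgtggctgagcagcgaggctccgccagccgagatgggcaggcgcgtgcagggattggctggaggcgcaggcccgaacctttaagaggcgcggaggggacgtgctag
Tjp3: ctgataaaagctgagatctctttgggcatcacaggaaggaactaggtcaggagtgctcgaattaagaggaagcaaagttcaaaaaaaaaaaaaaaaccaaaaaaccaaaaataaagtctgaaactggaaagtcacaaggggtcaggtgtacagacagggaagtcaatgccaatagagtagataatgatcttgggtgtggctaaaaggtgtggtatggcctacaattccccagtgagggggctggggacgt
The Cldn5 window held 1 match, the reverse complement of the GC box at -45, and 32.7% of the 32851 windows of this length in the table held that motif. The Mfsd2a window held 1 match, the TCF/LEF letters at -115, which 13.8% of windows held. RefSeq gave 2 windows for Tjp3, and the one shown, at the annotated gene start, held none of the 6 motifs. The other held 1 E-box match, a motif that 6.02% of windows held. Letters shared with a motif are a description and say nothing of a bound factor. RefSeq windows were at hand for 8 of the 9 genes, all but Plvap.

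**Figure D1:**
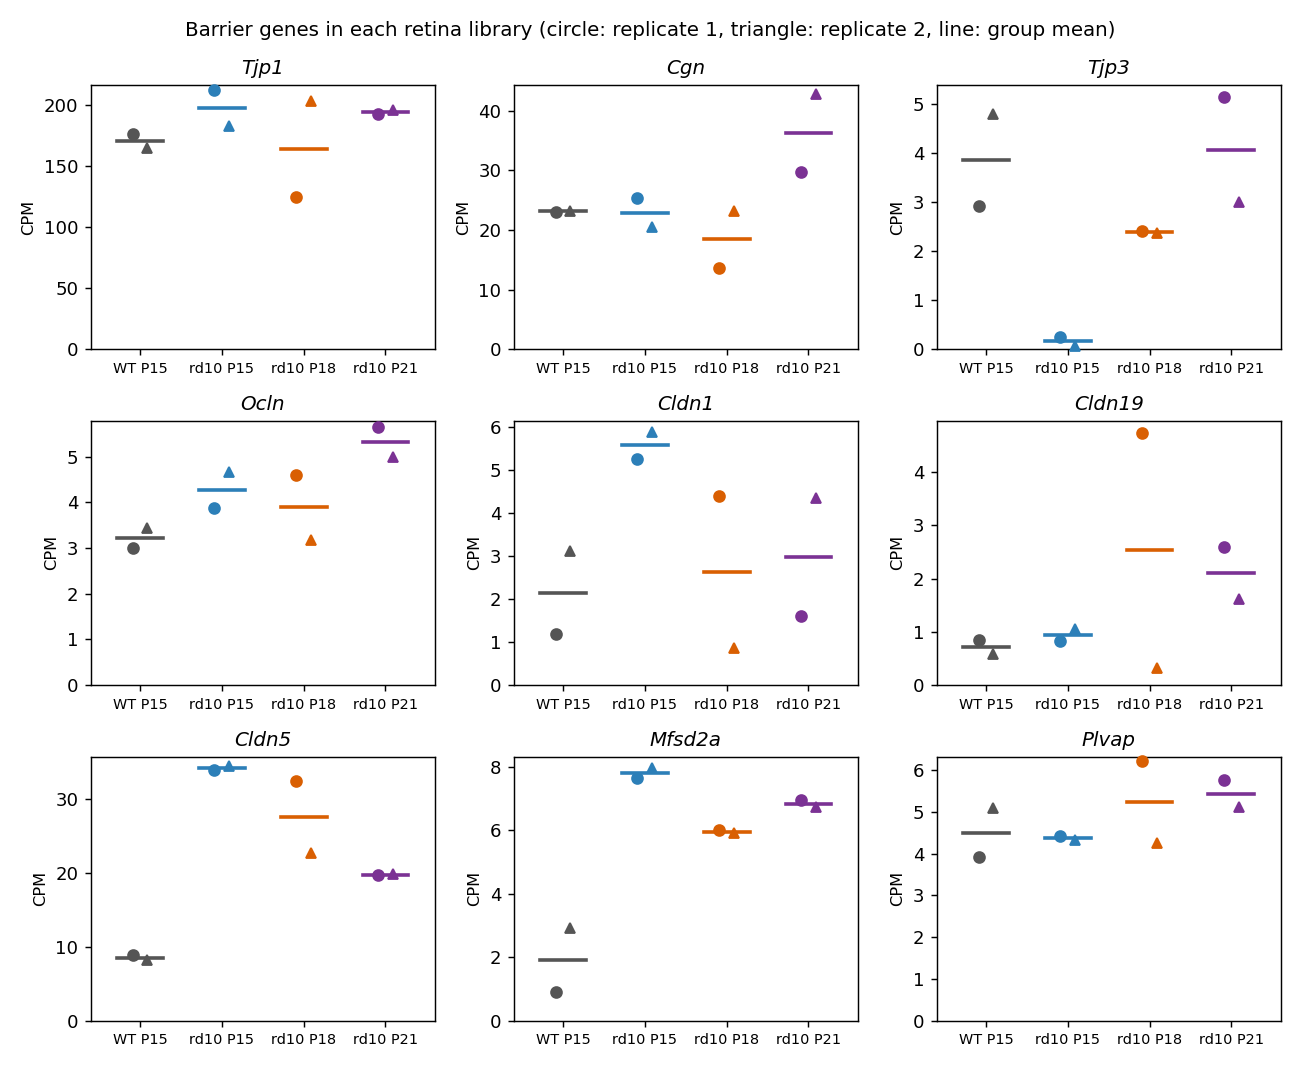
CPM of each of the 9 genes (vertical axis, from 0) in the 8 retina libraries, by group, with circles for replicate 1, triangles for replicate 2 and a line at the group mean. Cldn5 and Mfsd2a lie above both WT libraries in all 6 rd10 libraries, Tjp3 is near 0 in rd10 P15 alone, and the rd10 P18 pair is wide for Cldn1 and Cldn19.

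Per kilobase of exon, the scaffold Tjp1 had the highest level of the 9 genes, with a mean over the 8 libraries of 23.3 CPM per kb. Cldn5 followed with 15.9 CPM per kb, and Cgn had 4.19. Mfsd2a (2.50) and Plvap (2.46) were close to each other. Ocln (0.989), Tjp3 (0.705), Cldn1 (0.687) and Cldn19 (0.369) were all under 1 CPM per kb, and among the 3 claudins of the set Cldn5 had the highest level per length.

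Tjp1, which encodes ZO-1 (ENSMUSG00000030516, chr7:65296165-65527781, minus strand, GRCm38), links claudins and occludin to actin. Its level was 176 and 165 CPM in the WT pair. At P15 the rd10 pair had 212 and 183 CPM, followed by 125 and 204 CPM at P18 and 193 and 196 CPM at P21. The lowest and the second highest library both belonged to rd10 P18. None of its tested comparisons passed: the log2 fold change was -0.05 (SE 0.21, edgeR adjusted p = 0.935) for rd10 P18 against WT P15 and 0.19 (SE 0.21, adjusted p = 0.825) for rd10 P21 against WT P15.

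Cgn encodes cingulin (ENSMUSG00000068876, chr3:94760069-94786492, minus strand), a cytoplasmic plaque protein that binds the ZO proteins. The WT libraries had 23.1 and 23.3 CPM and the rd10 P15 libraries 25.3 and 20.5 CPM. At P18 the rd10 values were 13.7 and 23.2, and at P21 they were 29.7 and 42.9, above each of the other 6 libraries. The rd10 P21 libraries differed from rd10 P18 by a log2 fold change of 0.98 (SE 0.28, adjusted p = 0.429) and from WT P15 by 0.65 (SE 0.28, adjusted p = 0.420), and neither passed. Without rd10 P18 replicate 1 the difference of rd10 P21 from rd10 P18 was 0.64 (edgeR adjusted p = 0.769), and without replicate 2 it was 1.41 (adjusted p = 0.0118), in a fit that called 963 genes against 4 with all 8 libraries.

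Tjp3 encodes ZO-3 (ENSMUSG00000034917, chr10:81273207-81291581, minus strand), a zonula occludens scaffold best known from epithelia. It had 79 and 148 reads in the WT libraries. The rd10 libraries had 8 and 2 reads at P15, 81 and 75 at P18 and 180 and 86 at P21. Scaled, these were 2.92 and 4.79 CPM, 0.255 and 0.0705 CPM, 2.42 and 2.36 CPM, and 5.14 and 3.01 CPM. Both rd10 P15 libraries lay far below the other 6, the rd10 P18 pair lay just below WT, and rd10 P21 overlapped with WT. The exact 95% Poisson intervals were 3.45 to 15.8 for the 8 reads and 0.242 to 7.22 for the 2 reads, which cover counting error only.

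As a description, the mean CPM of Tjp3 in rd10 P15 was 23.7-fold lower than in WT P15 (log2 fold change -4.51, SE 0.66). Against rd10 P15, the fitted log2 difference was 3.82 for rd10 P18 and 4.59 for rd10 P21, and these share the rd10 P15 libraries that the choice of the gene rested on. Against WT P15 the fitted values were -0.69 for rd10 P18 and 0.08 for rd10 P21. In the comparison open to a test, rd10 P21 against rd10 P18, the log2 fold change was 0.77 (SE 0.53, adjusted p = 0.604), with both rd10 P21 libraries higher. Tjp3 shares 40 exonic bases with Apba3 on the opposite strand, and the library kit did not mark strand. Apba3 itself had 12.2 to 25.2 CPM over the 8 libraries, and 19.7 and 15.5 CPM in rd10 P15.

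Replicate 1 of rd10 P18 and P21, with Y-linked reads like rd10 P15, had 2.42 and 5.14 CPM of Tjp3. The genes whose log2 CPM followed that of Tjp3 most closely over the 8 libraries, among 15130 with a mean count of at least 50, were Bhlhe40 (Pearson r = 0.99), Clasrp (0.99), Lrig1 (0.98), Adamtsl5 (0.97) and Cdk18 (0.97). Bhlhe40, a transcriptional repressor of the circadian clock, had 77.6 and 80.2 CPM in WT and 43.8 and 34.7 CPM in rd10 P15, and then 66.3 to 86.1 CPM in rd10 P18 and P21. All of these correlations are over the same 8 libraries, which include the low pair.

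Ocln encodes occludin (ENSMUSG00000021638, chr13:100496507-100552718, minus strand), a membrane protein of the junction. Its level was 2.99 and 3.43 CPM without the mutation. The rd10 retinas showed 3.88 and 4.65 CPM on P15, 4.59 and 3.18 on P18, then 5.65 and 5.00 on P21. Both rd10 P21 libraries were higher than the other 6, and WT and rd10 P18 overlapped. For rd10 P21 against WT P15 the log2 fold change of 0.73 (SE 0.34, adjusted p = 0.451) did not pass.

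Cldn1 (ENSMUSG00000022512, chr16:26356642-26371841, minus strand) is a sealing claudin of epithelia. It had 1.18 and 3.11 CPM in the WT pair. At P15 the rd10 pair had 5.25 and 5.89 CPM, followed by 4.38 and 0.851 CPM at P18 and 1.60 and 4.34 CPM at P21. In rd10 P15 the pair lay close together, above the other 6 libraries, while the spread within the other groups was between 2.63- and 5.15-fold. The fitted log2 differences of rd10 P18 and P21 from WT P15 were 0.28 (SE 0.81, adjusted p = 0.904) and 0.46 (SE 0.81, adjusted p = 0.911).

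Cldn19 (ENSMUSG00000066058, chr4:119255414-119262438, plus strand), a claudin of kidney and pigment epithelium, was the member with the lowest level. It had 0.850 and 0.583 CPM for WT. The corresponding rd10 values were 0.827 and 1.06 CPM (P15), 4.74 and 0.315 CPM (P18) and 2.60 and 1.61 CPM (P21). The highest and the lowest library were both rd10 P18, 15.1-fold apart. In rd10 P18 against WT P15 the log2 fold change was 1.82 (SE 1.02, adjusted p = 0.407). It was 2.72 without rd10 P18 replicate 2 and -1.17 without rd10 P18 replicate 1, so this value rests on a single library. In rd10 P18 against rd10 P15 it was 1.42 (SE 1.00, adjusted p = 0.598), 2.33 without replicate 2 and -1.57 without replicate 1.

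That rd10 P18 replicate 1 had the highest summed level of 14 markers of lens, cornea and ciliary epithelium, 174 CPM, against 108 in replicate 2, 49.9 to 52.1 in WT, 75.9 to 88.2 in rd10 P15 and 93.5 to 104 in rd10 P21. Most of the sum was Krt18, with 165 CPM in that library. The lens crystallin gene Cryaa had 2.36 CPM and the epithelial adhesion gene Epcam 2.06 CPM there, against at most 0.423 and 0.699 CPM elsewhere. Krt5, Krt14 and Mip were at 0 in every library. Replicate 1 of rd10 P18 had 3 of the 14 markers at 0, against 6 to 10 in the other libraries. The part of these cells in the Cldn19 and Cldn1 values was not tested. Cldn19 shares 90 exonic bases with the antisense gene Gm12927, which had no reads in any library.

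Cldn5 (ENSMUSG00000041378, chr16:18776847-18778262, plus strand) is the main claudin of barrier endothelium. The WT libraries had 8.87 and 8.19 CPM. The rd10 libraries had 33.9 and 34.4 CPM at P15, 32.4 and 22.7 at P18 and 19.7 and 19.8 at P21. All 6 rd10 libraries were above both WT libraries, and within rd10 the 3 ages stood in order of age, P15 highest, with no overlap between neighbours.

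The fitted P15 difference was 2.00 on the log2 scale (SE 0.21), given as a description. Cldn5 was higher in rd10 P18 than in WT P15 by a log2 fold change of 1.69 (SE 0.21, edgeR adjusted p = 0.0125, which counts as a call, set at an adjusted p below 0.05 with a log2 fold change beyond 1 either way). With WT replicate 1 or 2 left out the adjusted p was 0.104 or 0.0759, and it was 0.0606 in a fit of only the 4 libraries compared, so the call depends on both WT libraries and on the shared estimate of spread. Without rd10 P18 replicate 1 or 2 the log2 fold change was 1.41 (adjusted p = 0.0112) or 1.93 (adjusted p = 5.64e-04). For rd10 P21 against WT P15 the log2 fold change was 1.21 (SE 0.21, adjusted p = 0.0602), and it passed with DESeq2 (adjusted p = 1.75e-04). With a term for sex the rd10 P18 value was 1.55 (adjusted p = 0.0277), and the rd10 P18 and P21 libraries with few Y-linked reads, like WT, had 22.7 and 19.8 CPM. That term was estimated from the rd10 P18 and P21 pairs alone, in which sex and replicate number coincide. It cannot separate sex from other differences within those pairs.

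Within rd10, the differences of Cldn5 were -0.31 (SE 0.20, adjusted p = 0.566) for P18 against P15, -0.79 (SE 0.20, adjusted p = 0.169) for P21 against P15 and -0.48 (SE 0.20, adjusted p = 0.450) for P21 against P18. None passed, although both later libraries were lower than both earlier ones in each. The genes most like Cldn5 over the 8 libraries were Fam171a2 (r = 0.98), Med22 (0.98), Actl6b (0.98), Fjx1 (0.98) and Hap1 (0.98).

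Mfsd2a (ENSMUSG00000028655, chr4:122946850-122961188, minus strand) carries lysophosphatidylcholine with omega-3 fatty acids into neural tissue and is known from barrier endothelium and pigment epithelium. It had 0.924 and 2.91 CPM without the mutation. The rd10 retinas showed 7.64 and 7.97 CPM on P15, 5.996 and 5.923 on P18, then 6.94 and 6.75 on P21. The rd10 pairs were within 1.04-fold of each other, whereas the WT pair was 3.15-fold apart, yet both WT libraries were below all 6 rd10 libraries. Against WT P15 the log2 fold change was 1.63 (SE 0.47, adjusted p = 0.130) for rd10 P18 and 1.83 (SE 0.47, adjusted p = 0.160) for rd10 P21, which missed the threshold in edgeR and passed in DESeq2 (adjusted p = 0.0250 and 0.0129). Leaving out WT replicate 1 or 2 moved the rd10 P21 value to 1.24 or 2.88, and the rd10 P18 value to 1.04 or 2.68.

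At P15 the fitted difference of Mfsd2a was 2.01 (SE 0.47), a description. The summed level of 13 pigment epithelium markers was 83.3 and 221 CPM for WT, then 322 and 359 CPM for rd10 P15, 52.1 to 68.5 CPM for rd10 P18 and 73.3 to 75.3 CPM for rd10 P21. The sum was lower in rd10 P18 and P21 than in WT and highest in rd10 P15. Mfsd2a was higher in every rd10 group than in WT, and both Mfsd2a and Cldn1 were highest in rd10 P15. Cldn19 had 0.827 and 1.06 CPM in rd10 P15, below the 2.60 and 1.61 CPM of rd10 P21. Within WT, replicate 2 had the higher sum, and also more Mfsd2a (2.91 against 0.924 CPM) and more Cldn1 (3.11 against 1.18 CPM). It had less Cldn19 (0.583 against 0.850 CPM). Of the 13 markers only Mlana was at 0 in any library. The part of pigment epithelium in the levels of these members was not tested at any age. Rimklb (r = 0.99), B930025P03Rik (0.98), Ppic (0.98), Aldh1a3 (0.97) and Pld1 (0.96) followed Mfsd2a most closely.

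Plvap (ENSMUSG00000034845, chr8:71497765-71511752, minus strand) encodes the diaphragm protein of fenestrated endothelium, such as that of the choroid. Its values were 3.92 and 5.08 CPM in the WT pair. At P15 the rd10 pair had 4.42 and 4.34 CPM, followed by 6.20 and 4.25 CPM at P18 and 5.77 and 5.10 CPM at P21. The ranges of WT, rd10 P15 and rd10 P18 overlapped, and the rd10 P21 pair lay just above WT. The log2 fold change was 0.22 (SE 0.32, adjusted p = 0.783) for rd10 P18 against WT P15 and 0.27 (SE 0.32, adjusted p = 0.837) for rd10 P21 against WT P15.

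The 3 endothelial members were also set against 14 endothelial markers. The mean log2 CPM of these was 3.21 for WT P15 and, for rd10, 3.76 at P15, 3.50 at P18 and 3.66 at P21, which is 0.55, 0.29 and 0.44 above WT. The endothelial cadherin gene Cdh5 had 5.69 and 5.08 CPM in WT and 7.87 to 17.6 CPM in rd10, and Pecam1 had 8.32 and 8.32 CPM in WT and 11.6 to 18.5 CPM in rd10. The VEGF receptor gene Flt1 had 89.8 and 94.99 CPM in WT but 70.1 and 72.5 CPM in rd10 P15, and 62.8 to 113 CPM at the later ages. No marker was at 0, and 6 of the 14 were higher in both rd10 P18 libraries than in both WT libraries, against 1 that was lower, beside 24.1% and 22.9% of all genes. For rd10 P15 the numbers were 6 higher and 2 lower (24.8% and 24.9% of all genes), and for rd10 P21 they were 7 and 0 (24.9% and 24.2%). Their summed CPM, most of which came from Kdr and Flt1, overlapped between WT (379 to 445), rd10 P15 (436 to 466) and rd10 P18 (359 to 446) and was 556 to 634 in rd10 P21.

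Relative to the mean log2 CPM of the endothelial markers, Cldn5 lay at -0.11 in WT (SD 0.06, n = 2). The rd10 means were 1.34 at P15 (SD 0.21), 1.27 at P18 (SD 0.32) and 0.65 at P21 (SD 0.01). Its excess over WT was then 1.45, 1.37 and 0.76, smaller than its unadjusted differences of 1.99, 1.66 and 1.21. The size of this excess depends on the markers averaged. Against WT P15 the fitted log2 fold change of Cdh5 was 1.62 in rd10 P15 and 0.82 in rd10 P18. That of Kdr was 0.11 and -0.10. Mfsd2a lay at -2.43 in WT (SD 1.15, n = 2). In rd10 it lay at -0.78 at P15 (SD 0.19), -0.91 at P18 (SD 0.027) and -0.87 at P21 (SD 0.041). Its excess over WT was 1.65, 1.52 and 1.56, against unadjusted differences of 2.20, 1.81 and 2.01. With WT libraries left out in turn, which was chosen after seeing the data, the excess without WT replicate 1 was 0.84, 0.71 and 0.75, and without WT replicate 2 it was 2.46, 2.33 and 2.38. Plvap relative to the markers was 0.57 below WT in rd10 P15, and its differences in rd10 P18 and P21 were -0.09 and -0.17. With 2 libraries against 2, an exact permutation test cannot go below p = 0.333, and none was made.

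**Figure D2:**
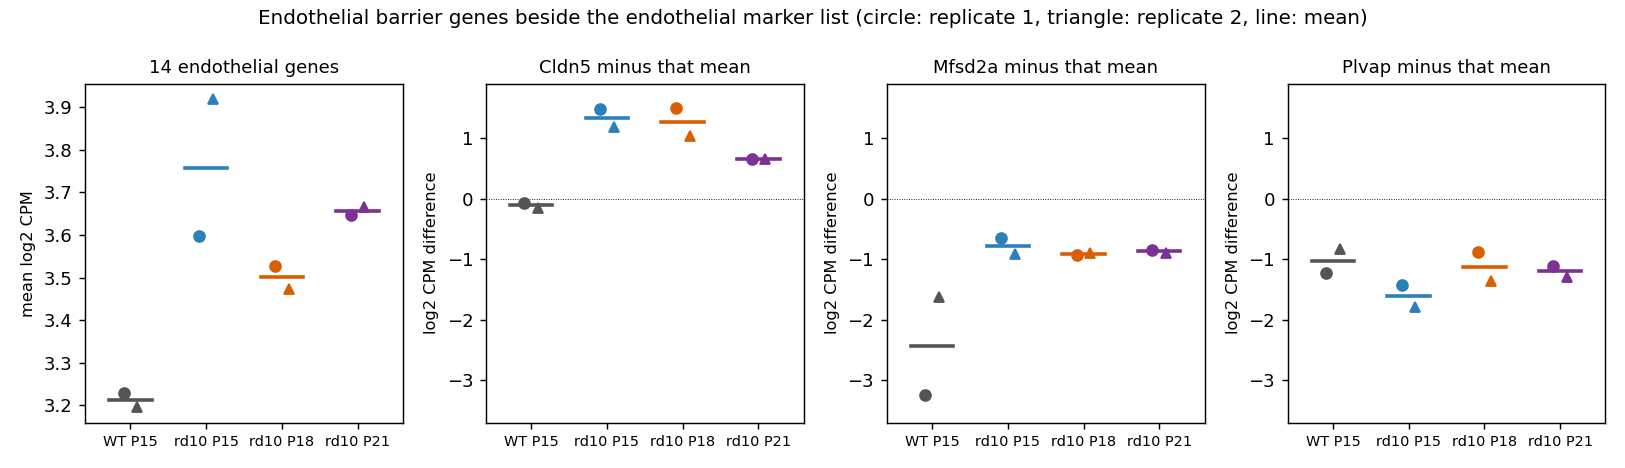
The left panel shows the mean log2 CPM of 14 endothelial markers (vertical axis, not from 0) in each library by group, and the other 3 panels show the log2 CPM of Cldn5, Mfsd2a and Plvap minus that mean. Circles are replicate 1, triangles replicate 2 and lines group means: Cldn5 is near 0 in WT and between 0.65 and 1.49 in rd10, and Mfsd2a lies at -3.24 and -1.62 in WT and between -0.93 and -0.65 in rd10.

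Counted together, 1 of the 8 members tested was called in rd10 P18 against WT P15, where 1.48% of all 20457 genes were called, and that member was Cldn5. In rd10 P21 against WT P15 it was 0 of 8 with edgeR (background 0.386%), with 3 at an unadjusted p under 0.05 (2416 of all 20457 genes). DESeq2 called 2 there, Cldn5 and Mfsd2a, and 570 of all 20457 genes. With edgeR it was 0 of 8 in rd10 P18 against rd10 P15 (background 0.591%), with 0 at an unadjusted p under 0.05 (2638 of all genes). In rd10 P21 against rd10 P15 it was 0 of 8 (background 0.401%), with 2 (2624 of all genes). In rd10 P21 against rd10 P18 it was 0 of 9 (background 0.0196%), with 2 (2219 of all genes), and DESeq2 called 0 in each of these 3 comparisons within rd10. In rd10 P15 against WT P15, from which the genes were chosen, no member was tested, and 0.23% of all genes were called.

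By library ranks, 7 of the 9 members were higher in both rd10 P21 libraries than in both WT libraries and 0 were lower. Over all genes tested 24.9% were higher and 24.2% lower in this way. The median log2 fold change of the 9 was 0.65 against 0.00 for all genes. In rd10 P18 against WT P15 the members numbered 2 higher (background 24.1%) and 1 lower (background 22.9%) with a median of 0.27, and for rd10 P15 against WT P15 there were 5 higher (24.8%) and 1 lower (24.9%) with a median of 0.40. The 3 comparisons share the WT libraries. These members were picked knowing results of these data, so the counts are descriptions.

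**Figure D3:**
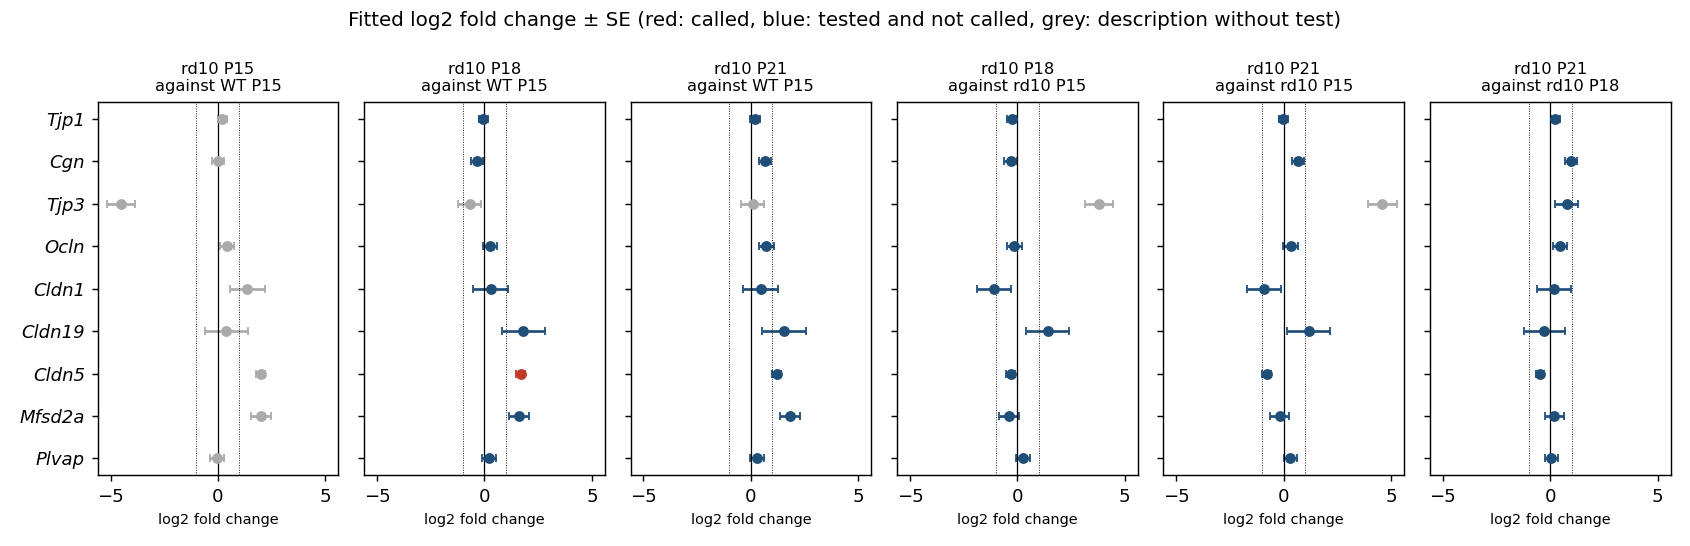
Fitted log2 fold change (horizontal axis) with its SE for each of the 9 genes in the 6 comparisons, with dotted lines at -1 and 1. Red marks the single call, Cldn5 in rd10 P18 against WT P15, blue marks tested and not called, and grey marks descriptions, among them Tjp3 at -4.51 in rd10 P15 against WT P15.

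Among themselves, the 9 genes did not share one pattern over the 8 libraries. The closest pair was Cldn5 and Mfsd2a (Pearson r = 0.83 of log2 CPM), followed by Cldn19 and Plvap (0.79), Cldn19 and Ocln (0.75) and Tjp1 and Cgn (0.73). Tjp3 and Cldn5 went most strongly opposite ways (-0.65). Replicate 1 of rd10 P18 was the lowest library for both Tjp1 and Cgn and the highest for Cldn19 and Plvap, so these values rest in part on that library.

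Other genes of the junction and barrier are given by role. Between 0.0196% and 1.48% of all genes were called in the 5 tested comparisons, so that a count of 0 or 1 call in a list of this size lies near the background and is no result about the list. Of 23 other claudins, 8 had no read in any library, 8 could be tested and 0 were called in any comparison. The most abundant of them were Cldn12, with 22.7 to 90.0 CPM and wide spread within every group, and Cldnd1, with 39.1 to 62.3 CPM. Of 16 other junction membrane proteins tested, 1 was called: Marveld3, a relative of occludin, had 6.80 and 6.73 CPM for WT. The corresponding rd10 values were 1.02 and 2.40 CPM (P15), 10.4 and 11.1 CPM (P18) and 8.28 and 8.53 CPM (P21). Like Tjp3 it was lowest in both rd10 P15 libraries, and it was higher in rd10 P18 than in rd10 P15 by 2.66 on the log2 scale (SE 0.39, adjusted p = 0.0360). That call held without rd10 P18 replicate 1 or 2 (adjusted p = 0.0478 and 0.00930). It was lost without rd10 P15 replicate 1 (adjusted p = 0.112) or either WT library (0.0565 and 0.0585), and in a fit of the 4 libraries compared (0.120).

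Crb1 and Jam2 were the most abundant of the junction membrane proteins. Crb1, an apical polarity protein of photoreceptors and Muller glia, had 622 and 568 CPM without the mutation. The rd10 retinas showed 494 and 509 CPM on P15, 284 and 370 on P18, then 396 and 426 on P21. The difference of rd10 P18 from WT P15 was -0.86 (SE 0.16, adjusted p = 0.0372), short of the fold threshold. Jam2 had 112 to 227 CPM. In the group of 28 scaffold and polarity genes tested, among them Ybx3 (258 to 466 CPM), 0 were called in any comparison, and the median log2 fold change was -0.12 for rd10 P18 and 0.20 for rd10 P21 against WT P15.

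Of 15 adherens junction genes, led by Cdh2 (155 to 256 CPM) and Ctnnb1 (339 to 530 CPM), 0 were called, and the medians were 0.14 and 0.37. The 18 barrier transporters also held 0 calls, with medians of 0.03 and 0.27. Slc2a1, the glucose transporter of barrier endothelium and glia, had 239 and 241 CPM in the WT pair. At P15 the rd10 pair had 303 and 299 CPM, followed by 328 and 334 CPM at P18 and 266 and 294 CPM at P21, higher in all 6 rd10 libraries but not called. Spock2, a proteoglycan, had 518 to 634 CPM.

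The Norrin and Wnt pathway switches on barrier genes in retinal endothelium through Fzd4 and beta-catenin. Of its 20 genes tested 0 were called, while 13 were higher and 1 was lower in both rd10 P21 libraries than in both WT libraries (24.9% and 24.2% of all genes), with a median of 0.42 (0.45 for rd10 P18). Its most abundant genes were Ctnnb1 and Lrp6, a Wnt co-receptor with 59.2 to 106 CPM. Fzd4 itself had a log2 fold change of -0.91 (SE 0.26) for rd10 P18 and -0.46 (SE 0.26) for rd10 P21 against WT P15. Such counts were not particular to this list. In rd10 P21 against WT P15, 11 of 15 adherens junction genes were higher and 0 lower. For 23 transcytosis and permeability genes the numbers were 14 and 0, and for 28 scaffold and polarity genes 14 and 7.

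Among 23 genes of transcytosis and permeability, Mmp14, a membrane-bound matrix metalloprotease, was called in both comparisons with WT. It had 13.7 and 13.7 CPM for WT. The corresponding rd10 values were 25.6 and 22.0 CPM (P15), 38.4 and 37.7 CPM (P18) and 32.1 and 32.0 CPM (P21). Its log2 fold change was 1.47 (SE 0.16, adjusted p = 0.00782) for rd10 P18 and 1.23 (SE 0.16, adjusted p = 0.0332) for rd10 P21. The rd10 P18 call held without either rd10 P18 library (adjusted p = 0.00865 and 0.00141) and was lost without WT replicate 1 or 2 (adjusted p = 0.0893 and 0.0542). The rd10 P21 call was lost without any single library of WT P15, rd10 P15 or rd10 P21 (adjusted p 0.0576 to 0.200), with a term for sex (0.0631) and with a replicate block (0.0579). Aplnr, the apelin receptor of sprouting endothelium, had 0.961 and 1.33 CPM without the mutation. The rd10 retinas showed 10.4 and 11.1 CPM on P15, 3.49 and 2.93 on P18, then 1.94 and 1.92 on P21. As a description, its fitted log2 difference of rd10 P15 from WT P15 was 3.23 (SE 0.35). Aplnr was lower in rd10 P21 than in rd10 P15, with a log2 fold change of -2.47 (SE 0.33, adjusted p = 0.0277). That comparison uses the same high rd10 P15 pair, and the list was made with earlier results of these data known. Leaving out either rd10 P15 library or either rd10 P21 library gave adjusted p values between 0.0848 and 0.183, so this call depends on all 4. The most abundant genes of this group were Lrp1 (156 to 374 CPM) and the VEGF receptor gene Kdr (182 to 418 CPM).

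**Figure D4:**
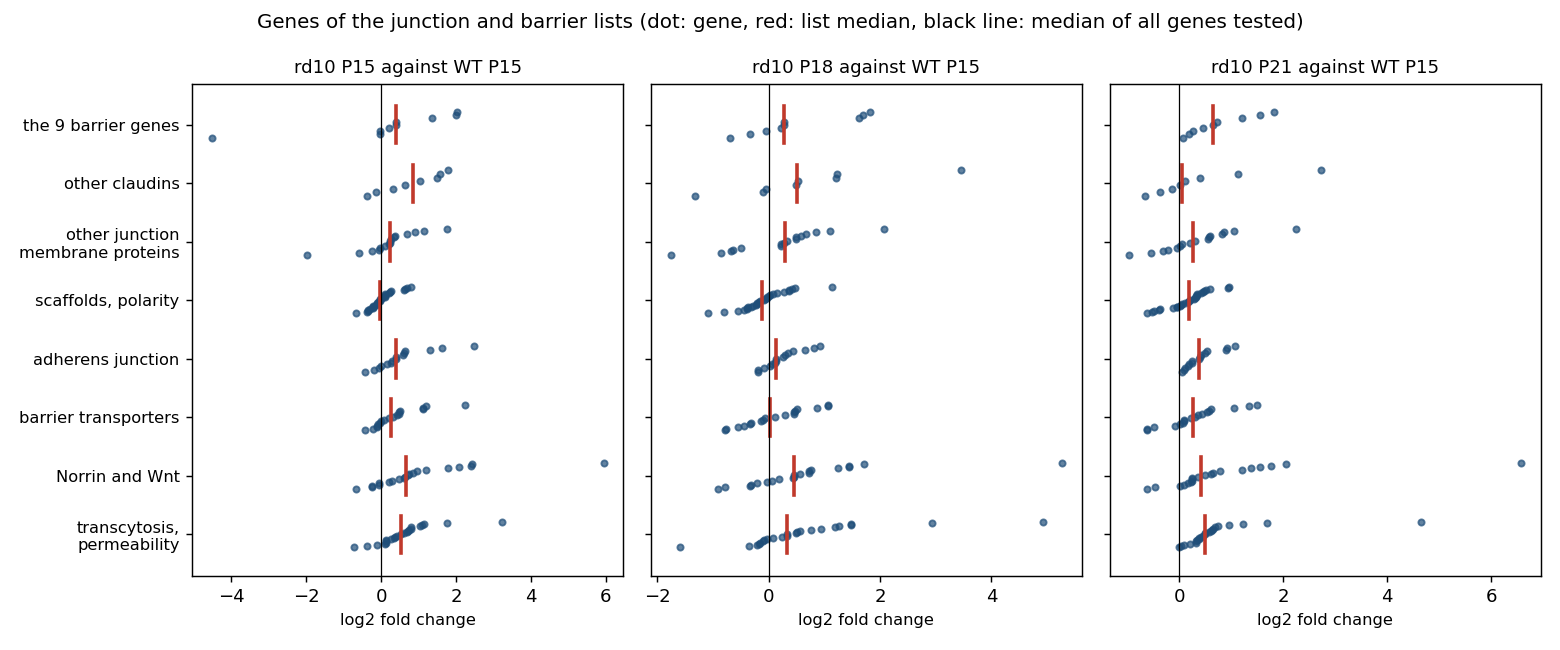
Fitted log2 fold change (horizontal axis) of each tested gene (dots) of the 9 barrier genes and the 7 other groups, for the 3 comparisons with WT P15, with the group's median in red and the median of all genes as a black line. The points farthest right among the Norrin and Wnt genes are Wnt7b, which had no read in WT, so that its fitted value is no estimate of a fold.

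**Figure D5:**
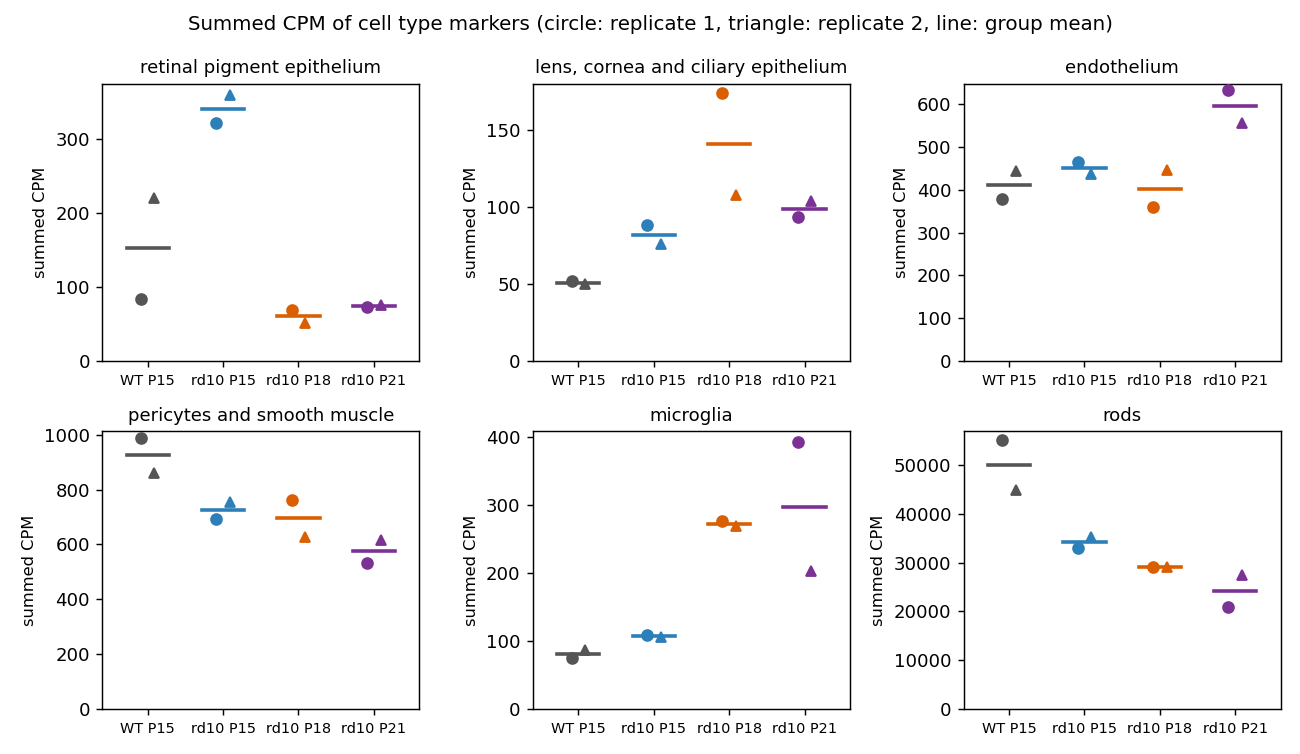
Summed CPM (vertical axis, from 0) of markers of 6 other cell types in each library by group, with circles for replicate 1, triangles for replicate 2 and lines for group means. The pigment epithelium sum is highest in rd10 P15 (322 and 359), the lens, cornea and ciliary sum in rd10 P18 replicate 1 (174), and the rod sum is lower in all 6 rd10 libraries than in WT.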

How the data were processed

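The authors deposited a table of raw read counts per Ensembl gene for 8 whole-retina libraries, sequenced from poly(A) RNA. Their processing notes name HISAT2; neither the labels nor the methods read here give the counting tool, genome build and annotation. Symbols, positions and exon lengths came from GENCODE M21 (GRCm38), which names 52081 of the 57010 identifiers, and promoter windows from RefSeq (GRCm38.p6).

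Counts were filtered with filterByExpr by group (minimum count 10, total 15), scaled by TMM and fitted over all 8 libraries by edgeR's quasi-likelihood test (edgeR 4.0.16, limma 3.58.1, R 4.3.3, robust, group only, 4 residual degrees of freedom), with Benjamini-Hochberg adjustment over 20457 genes. Calls needed an adjusted p below 0.05 with a log2 fold change beyond 1 either way, as in the study. The SE is the log2 fold change divided by the square root of F. Log2 CPM used a prior count of 2. The pipeline was tested on simulated data. DESeq2 1.42.0, other scalings, no filter, 4 libraries only, a term for sex, a replicate block and leaving out each library were alternatives.

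The 9 members and the lists of claudins, other junction membrane proteins, scaffolds and polarity proteins, adherens junction genes, barrier transporters, Norrin and Wnt genes, transcytosis and permeability genes and cell type markers were chosen with earlier results of these data known. Named beside the members were list genes called in a tested comparison, the 2 genes of highest mean CPM of each list (1 of them is not reported here), and the 5 genes most like a member over the 8 libraries, given for Tjp3, Cldn5 and Mfsd2a; other names, such as Cdh5, Pecam1, Flt1, Cryaa and Wnt7b, were chosen after their values were seen. The labels call the libraries biological replicates. Where nothing says that they came from separate animals, p-values measure only the spread between these libraries. Intervals cover counting error only.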

Additional observations from a re-analysis of the deposited data

How the results depend on the processing

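The replicate numbers do not pair the retinas: deviations of same-numbered libraries from their group means correlated at -0.02 to 0.06. With the number as a replicate block, the log2 fold change of Cldn19 in rd10 P21 against rd10 P18 was 0.12. The counts of members called in the tested comparisons were as in the report.

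With a term for sex, the log2 fold change was 0.10 for Tjp1, -0.049 for Cldn1 and -0.053 for Cldn19 in rd10 P18 against WT P15, 0.62 for Cldn19 in rd10 P21 against rd10 P18 and 0.021 for Ocln in rd10 P18 against rd10 P15, each of the opposite sign to the report. That term rests on the rd10 P18 and P21 pairs alone, where sex matches the replicate number. These changes of sign therefore cannot be assigned to sex. Scaled by library size only, Tjp1 was 0.063 in rd10 P18 against WT P15 and 0.045 in rd10 P21 against rd10 P15, opposite too. That scaling moved the median of all genes to 0.13 (P18) and 0.11 (P21) against WT P15. DESeq2 called 2 members for rd10 P18 and 2 for rd10 P21 against WT P15, beside 949 and 570 of all genes. The fit of the 4 libraries compared called 0 and 1 members, beside 143 and 129 of all genes. Library size only and no filter called 1 member each for rd10 P21, beside 91 and 160 of all genes. The causes were not tested.

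With 1 library left out at a time, directions changed where the difference was small or a pair compared was wide. Such pairs were those of rd10 P18 and, for Cldn1, also those of rd10 P21 and WT. For rd10 P18 against WT P15 the log2 fold change ranged from -0.45 to 0.26 for Tjp1, -1.33 to 1.15 for Cldn1, -1.17 to 2.72 for Cldn19, -0.014 to 0.51 for Ocln, -0.76 to 0.0020 for Cgn and -0.082 to 0.46 for Plvap. In rd10 P21 against WT P15 it was -0.42 to 1.32 for Cldn1. For rd10 P18 against rd10 P15 it was -0.66 to 0.046 for Tjp1, -1.57 to 2.33 for Cldn19, -0.42 to 0.11 for Ocln, -0.75 to 0.018 for Cgn and -0.042 to 0.50 for Plvap. In rd10 P21 against rd10 P15 it was -0.13 to 0.10 for Tjp1. In rd10 P21 against rd10 P18 it was -0.067 to 0.64 for Tjp1, -0.71 to 1.79 for Cldn1, -1.17 to 2.72 for Cldn19 and -0.19 to 0.35 for Plvap. The direction of Cldn5 and Mfsd2a against WT P15 was the same under every alternative run. Members with few reads (Cldn19, 10 to 159 per library) have the widest errors.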
